A study of Arabidopsis thaliana with 12 samples.

Results

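A set of 45 genes of Arabidopsis thaliana, out of 27655 genes in the deposited table, differed in opposite directions in 2 chromatin mutants. Most of them, 38 genes, were lower in plants whose histone H3.3 carries alanine in place of lysine 4 than in their control, and higher in the libraries labelled sdg2 than in wild type. The other 7 were higher in the first mutant and lower in the libraries labelled sdg2. Expression was measured by RNA sequencing in whole seedlings aged 3 weeks, grown at 22 °C in a day of 16 h light and 8 h dark, in 4 groups of 3 libraries. The groups were wild type (the accession Col), the genotype h3.3ko;HTR5 (called HTR5 here), the genotype h3.3ko;HTR5 K4A (called K4A here) and sdg2. HTR5 and K4A both carry the h3.3ko background and an HTR5 copy, unaltered in HTR5 and with the K4A change in K4A, while Col and sdg2 are labelled with neither. The labels do not say which lines or alleles were used, what drives the HTR5 copy, how many plants went into a library or whether replicates were grown apart, so the spread between libraries may be technical.

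Members were chosen by their group means of log2(TPM + 1), where TPM is transcripts scaled to a fixed sum in each library, here per length of the whole gene span. A gene was kept when K4A minus HTR5 was at least 1 and sdg2 minus Col at most -1, or the reverse, and when its mean TPM reached 3 in some group. A step of 1 on this scale is a 2-fold change of TPM + 1, which understates the change in TPM of genes at low levels. The rule also left out 10 named genes of pectin-related enzyme families, of which VGDH1 alone passed both thresholds. Since K4A minus HTR5 and sdg2 minus Col chose the genes, both are given below as descriptions, without a test. Among the 19023 genes with a mean TPM of 3 or more in some group, 0.242% passed both thresholds in opposite directions, VGDH1 counted, and 14% passed both in the same direction. Of the 1595 genes (8.38%) with K4A at least 1 below HTR5, 815 were also at least 1 lower in sdg2 than in Col, and 39 were at least 1 higher. In the plot of both effects, the 45 genes lie across the main diagonal cloud.

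**Figure D1:**
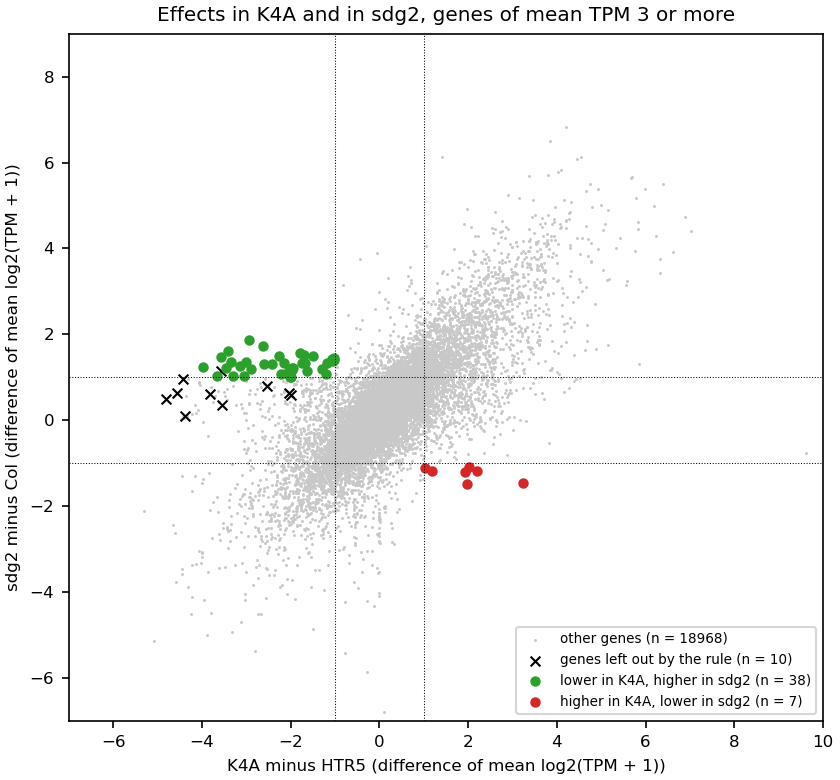
Each point is a gene with a mean TPM of 3 or more in some group, placed by K4A minus HTR5 (x axis) and sdg2 minus Col (y axis), both as differences of mean log2(TPM + 1). Dotted lines mark the thresholds of -1 and 1, green and red points are the 38 and 7 chosen genes, crosses are the 10 genes left out by the rule, and grey points are the other 18968 genes, most of which follow the diagonal.

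Histone H3.3 is the variant of histone H3 that is placed into chromatin outside replication, mostly over transcribed genes. The trimethyl form of its lysine 4 marks the 5′ parts of active genes. SDG2, a SET-domain methyltransferase, is known in Arabidopsis as a main enzyme for that form. Plants without SDG2 are known for dwarfism and for defects in making pollen and ovules. Mature pollen carries a distinct set of transcripts for the pollen tube, whose tip grows by adding pectin to its wall. Pectinesterases strip methyl groups from that pectin, their inhibitors hold them back, and receptor kinases, ion transporters and actin-binding proteins steer and feed the growing tip.

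Depth, worked out from the low TPM values, was 13718753 to 14536028 reads in the controls and 20725060 to 30364749 in the mutants. The 10 most abundant genes of each library held 7.98 to 11.32% of all TPM in the controls and 4.66 to 5.64% in the mutants. Depth and this share part the libraries in the same way as both comparisons of the rule do, so the genotypes and these properties cannot be told apart in them. HTR5 and Col are alike in both, apart from HTR5 replicate 2, the library at 7.98%, and so are K4A and sdg2. Without HTR5 replicate 2 the rule gave 39 and 8 genes in place of 38 and 7. Of the genes known to encode histone H3.3, annotated only as histone superfamily proteins, AT5G10980 differed most. It had a mean of 243.5 TPM in Col and 191.9 in sdg2 against 6.49 in HTR5 and 4.80 in K4A. The other H3.3 genes stayed well above 0 in all groups, AT4G40030 between 77.9 and 316.2 TPM and AT4G40040 between 272.5 and 433.3, and reads shared between such close copies are uncertain. SDG2 itself had 21.9 ± 3.1 TPM in Col and 161.1 ± 19.4 in the libraries labelled sdg2 (mean ± SD, n = 3). Its transcript was thus not reduced, and this label could not be checked by the level of its gene.

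All 38 genes of the larger set had every K4A library below every HTR5 library, as did 26.5% of the genes with a mean TPM of 3 or more in some group. All 38 also had every sdg2 library above every Col library, as did 58%. The rule favours both, and nothing is read from them. Their median K4A minus HTR5 was -2.06, from -3.98 to -1.01, beside 0.14 over all tested genes. Their median sdg2 minus Col was 1.304, from 1.01 to 1.86, beside 0.31 over all tested genes. Summed over the 38 genes, the level was 334.6, 307.1 and 362.8 TPM in HTR5 against 30.3, 26.4 and 27.1 in K4A, and 414.3, 360.9 and 340.7 in Col against 957, 944.1 and 1002 in sdg2. The summed mean was therefore 2.6 times as high in sdg2 as in Col, and 12 times as high in HTR5 as in K4A. A whole-plant library cannot tell fewer cells of one type from less RNA per cell, and this holds for each level below. In K4A, 29 of the 38 genes had a mean under 1 TPM, and 8 had 3 reads or fewer in each library. A fold against those 8 is given as a bound, taken at 3 reads in each library. It bounds the observed fold and is no confidence limit for counting error.

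**Figure D2:**
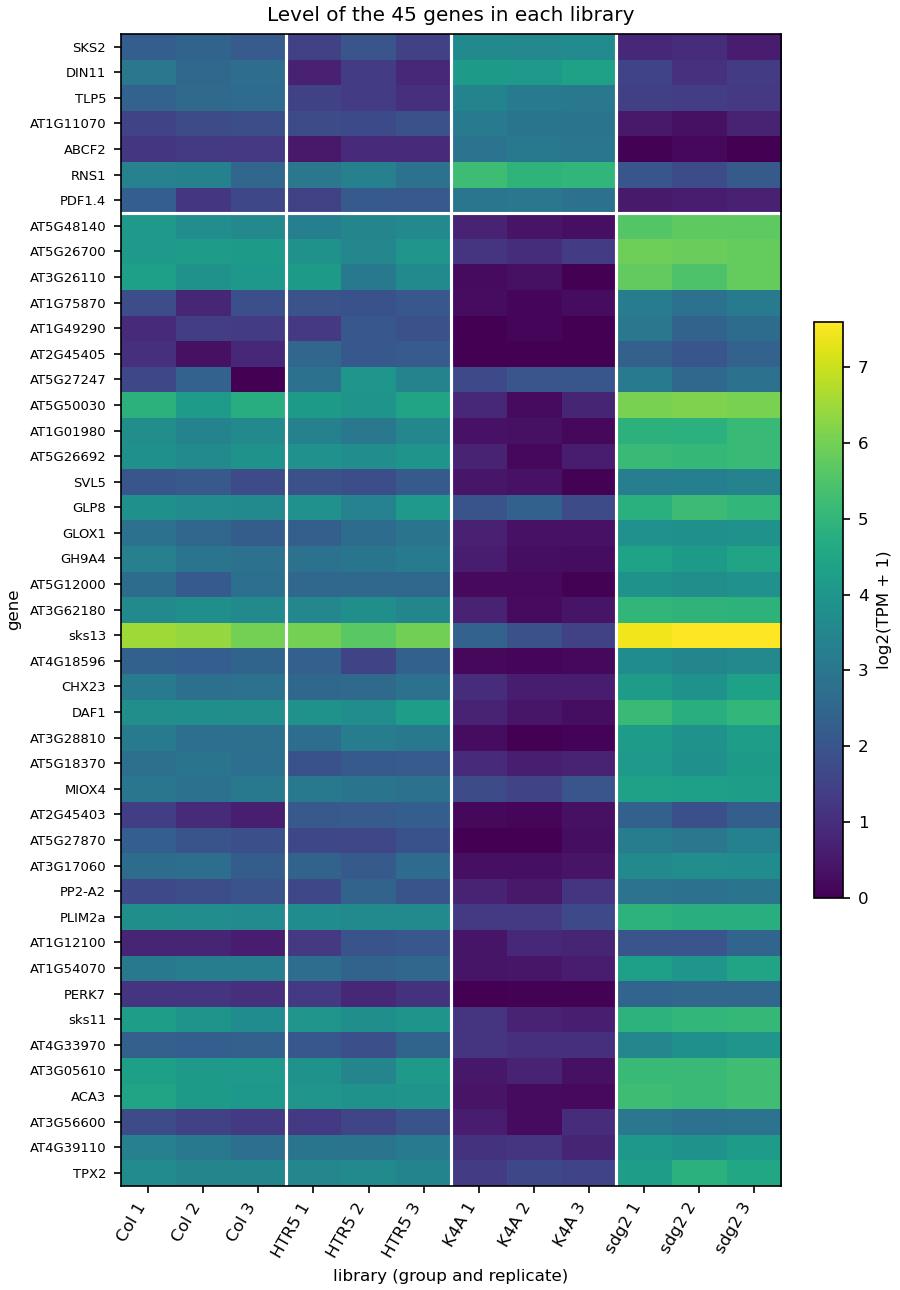
Colour gives the log2(TPM + 1) of each of the 45 genes (rows) in each of the 12 libraries (columns, by group and replicate); the white line parts the 7 genes higher in K4A (top) from the 38 lower in K4A. The sdg2 columns are brightest and the K4A columns darkest for most of the 38 genes, with Col and HTR5 between them.

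Most of the 38 genes were at similar levels in both controls. HTR5 minus Col had a median of -0.05 over the 38, beside 0.07 over all tested genes. It lay within 0.5 of 0 for 31 of the 38. That share was not counted over all genes, so it is not given as a trait of the set. By limma with Benjamini-Hochberg adjustment over all 20881 tested genes, 4 of the 38 were called higher in HTR5 than in Col and 2 lower, beside 5.5% and 3.78% of all tested genes. The 2 lower genes, named because they were so called, were AT5G18370 (adjusted p = 0.00209) and AT1G54070 (adjusted p = 0.00828). Both controls enter the rule, with opposite signs, so nothing is read from these counts. For 34 of the 38 genes HTR5 was less than 1 above Col, from -0.75 to 0.54. In all 34, every K4A library lay under every other library and every sdg2 library above every other library, an order that 2.05% of the genes with a mean TPM of 3 or more had. The rule and the limit on HTR5 minus Col fix this order for the group means, so nothing is read from it. The mean TPM of these genes in sdg2 was 2.08 to 4.33 times that in Col, with a median of 2.66. Between the mutants, 37 of the 38 were called lower in K4A than in sdg2, with a median of -3.37, and the exception was AT5G27247. Of all tested genes, 29.8% were called lower in K4A than in sdg2, and both groups enter the rule.

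**Figure D3:**
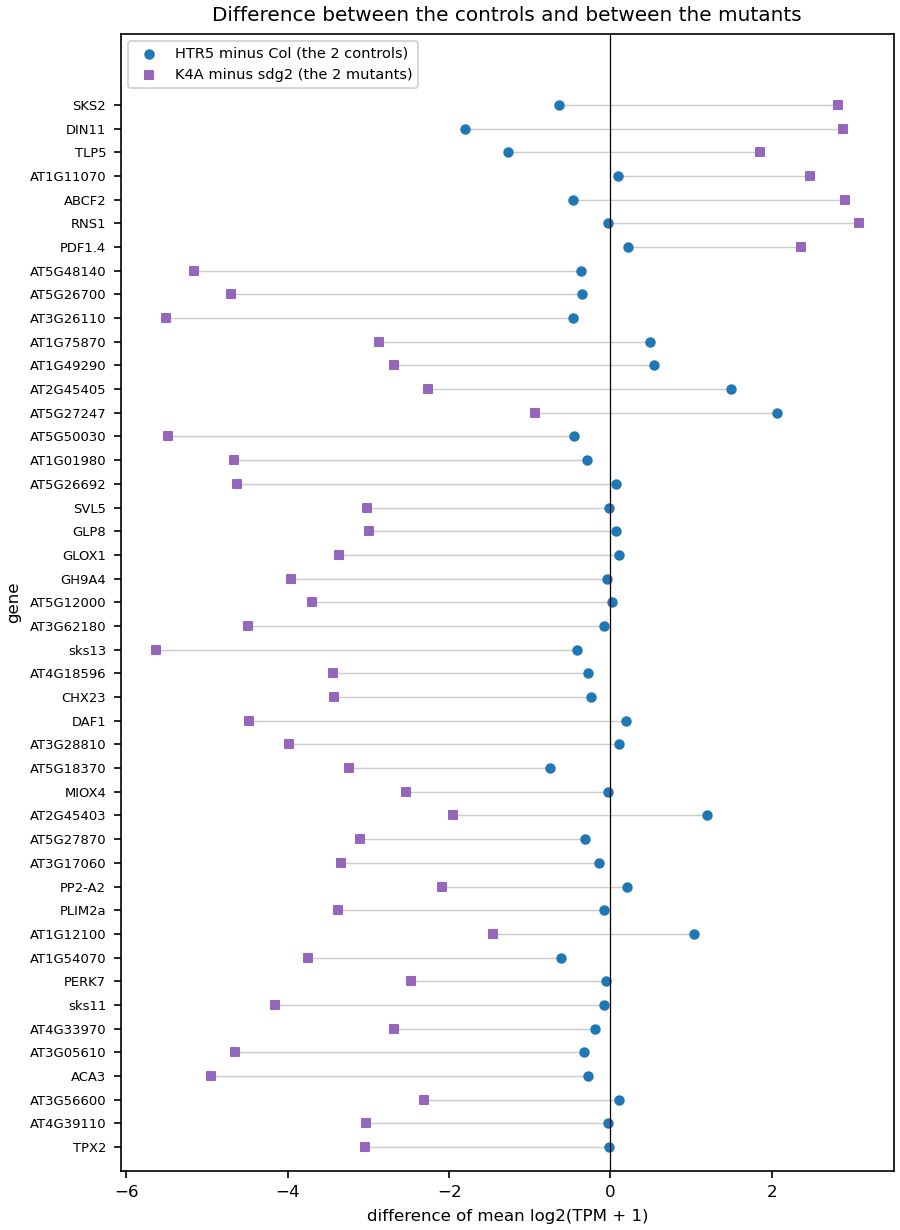
For each of the 45 genes (rows), the circle gives HTR5 minus Col and the square K4A minus sdg2, both as differences of mean log2(TPM + 1). Circles of most of the 38 lower genes lie within 0.5 of 0, whereas their squares reach from -5.63 to -0.93.

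The remaining 4 of the 38 genes, singled out after their values were seen, had another pattern: low in Col and K4A, high in HTR5 and sdg2. AT2G45405 and AT2G45403, both annotated as uncharacterized proteins, lie on the plus strand of chromosome 2, 190 bp apart. AT2G45405 (chr2:18710344-18710917, TAIR10.1) had 4.71, 3.23 and 3.53 TPM in HTR5 and no reads in any K4A library, and 1.09, 0.274 and 0.827 TPM in Col against 4.05, 3.104 and 4.28 in sdg2. HTR5 was at least 6.45 times as high as K4A. Its neighbour AT2G45403 had 3.34, 3.56 and 3.84 TPM in HTR5 against 0.128, 0.104 and 0.266 in K4A, and 1.65, 0.922 and 0.556 in Col against 4.09, 2.65 and 3.92 in sdg2. In both genes the HTR5 and sdg2 libraries overlapped and stood above all Col and K4A libraries. HTR5 minus Col was 1.497 for AT2G45405 and 1.198 for AT2G45403, the difference they were singled out for, given without a test. AT1G12100, of the family of lipid-transfer and seed storage proteins, averaged 0.657 ± 0.140 TPM in Col against 3.51 ± 0.902 in sdg2, and 2.499 ± 0.951 in HTR5 against 0.629 ± 0.257 in K4A. AT5G27247, an uncharacterized gene with a span of only 147 bp, had 6.13, 14.9 and 9.55 TPM in HTR5 against 2.23, 3.02 and 3.08 in K4A, and 2.13, 4.28 and 0 in Col against 7.90, 4.85 and 6.07 in sdg2. The values of AT5G27247 rest on at most 14 reads in a library. In Col, AT1G12100 had at most 3 reads in a library, AT2G45405 at most 4 and AT2G45403 at most 9.

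The RefSeq annotation carries notes on where a gene was found expressed, which the rule did not use. Of the 29 genes among the 38 with such a note, 21 (72.4%) were noted at a pollen stage. Of the 11935 genes with a note and a mean TPM of 3 or more, 395 (3.31%) were. Among the 7 genes of the other direction, 4 had a note and 1 of them, SKS2, was noted at a pollen stage. Of the 395 pollen-stage genes, 130 had K4A at least 1 below HTR5. Of these 130, 21 had sdg2 at least 1 above Col, and all 21 are members. A further 75 had sdg2 above Col by less than 1, and 34 had it at or below Col. Of the other members with a note, CHX23 was noted in pollen but at no pollen stage. The 7 without a pollen note were AT1G12100, TPX2, PP2-A2, MIOX4, AT5G18370, AT5G26700 and AT5G48140.

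Among 28 lists of genes of known function, holding 345 matched genes, 2 genes were members: PLIM2a in the list of late pollen genes and DIN11 in the list of sugar starvation and dark genes. BUPS1, another name of the member AT4G39110, was on the late pollen list but was not matched, so this member is missing from these counts. Of the 28 late pollen genes listed, 24 were matched and 21 tested. Their median K4A minus HTR5 was -1.84, and 19 of the 21 were called lower in K4A than in HTR5 and 1 higher, beside 26.1% and 42.5% of all tested genes. Their median sdg2 minus Col was 0.27, and 10 were called higher in sdg2 and 6 lower, beside 52.4% and 20.7%. The 23 matched genes other than PLIM2a summed to 185.5 to 243.3 TPM in HTR5 against 23.5 to 29.7 in K4A, and 252.9 to 329.3 in Col against 250.3 to 305.6 in sdg2. Their sums in sdg2 overlapped those in Col, although single genes moved both ways. For instance, AGP23 averaged 69.87 TPM in Col and 15.28 in sdg2, and AGP11 averaged 51.81 in Col and 91.12 in sdg2. The sums of the 38 members were set apart there by the rule, so they are no comparison for these genes. Of these markers, MYB120 was listed at 0 in all HTR5 libraries, and no other was at 0 throughout a group. Genes of the anther wall and its feeding layer, the tapetum, were lower in both mutants: all 13 tested were called lower in K4A than in HTR5, and 11 lower and 0 higher in sdg2 than in Col. Summed over 14 matched genes, they held 408.9 to 597.7 TPM in HTR5 against 93.5 to 112.5 in K4A, and 358.1 to 490.7 in Col against 223.4 to 256.6 in sdg2, with none at 0. The 11 floral organ identity genes summed to 147.3 to 197.9 TPM in HTR5 against 121.6 to 122.4 in K4A, and 133.8 to 140.6 in Col against 134.6 to 142.7 in sdg2. The 17 matched seed maturation genes summed to 25.1 to 30.37 TPM in Col and 2.094 to 3.301 in HTR5. They summed to 6.491 to 7.674 TPM in K4A and 3.728 to 5.925 in sdg2. BAN led them in Col, with a mean of 22.12 TPM against at most 0.293 in any other group. Samples labelled as seedlings thus held flower and pollen transcripts in all groups. The excess of the seed list in Col lay mainly in BAN and in TT12, which averaged 2.80 TPM in Col. Not all genes of that list were highest in Col: SESA1 averaged 2.23 TPM in K4A against 0.3 in Col. The part of tissue composition in the values of the 38 genes was not tested.

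**Figure D4:**
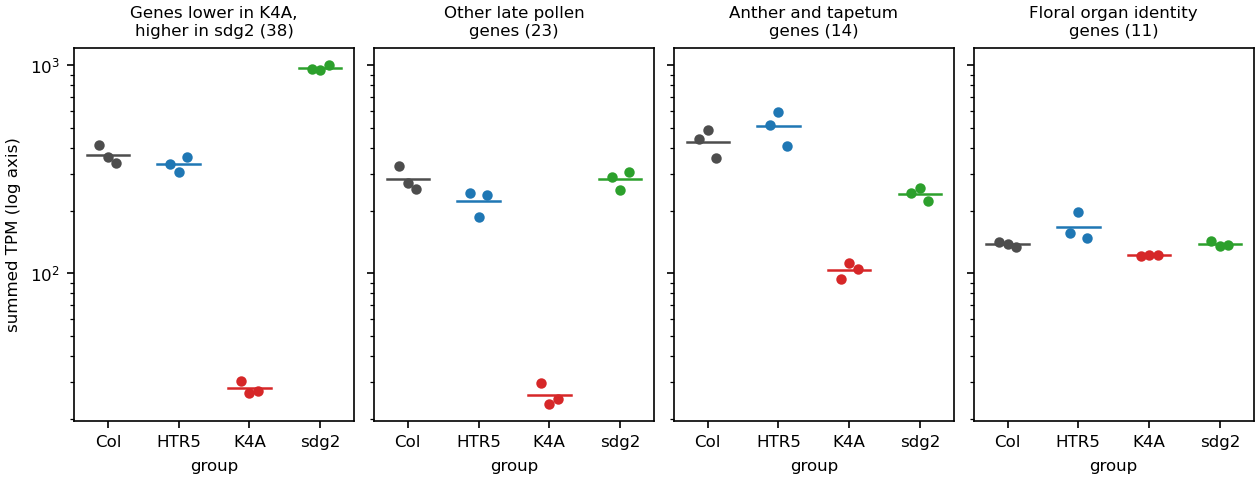
Points are the 12 libraries, placed by the summed TPM (log axis) of the 38 members, of 23 other late pollen genes, of 14 anther and tapetum genes and of 11 floral organ identity genes; bars are group means of 3 libraries. In sdg2 the members lie above Col, as the rule requires of each, the other late pollen genes overlap Col, and the anther and tapetum genes lie below Col.

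The 250 bases before each annotated gene start were searched on both strands for 16 motifs, 3 of them added after values were seen. The MEF2-type CArG box, which MADS-domain factors of late pollen are known to bind, was in 8 of the 38 windows (21.1%) and in 2.15% of all 27444 windows. It was 1 of the 3 motifs added, and no window of the 7 held it. AGAAA, a pollen element of tomato LAT52, was in 81.6% of the 38 windows and 82.5% of all, and GTGA in 81.6% and 77.6%. CACATG was in none of the 38 windows and in 11.1% of all, AAAATATCT in none and 2.36%, and TGGGCC in 2.63% and 13.7%. TTGACT was in 26.3% of the 38 windows and 19.1% of all. The G-box CACGTG was in 2 of the 7 windows (28.6%), those of DIN11 and ABCF2, in 2.63% of the 38 and in 6.49% of all. Windows of 4 of the 8 genes with a MEF2-type box overlapped no other gene, and they are shown first, to place the box relative to the gene start, with the box in capitals. They are followed by the 2 windows with a G-box in capitals. Each runs 5′ to 3′ on the strand of its gene up to the base before the gene start, from the RefSeq sequence of TAIR10.1.
CHX23: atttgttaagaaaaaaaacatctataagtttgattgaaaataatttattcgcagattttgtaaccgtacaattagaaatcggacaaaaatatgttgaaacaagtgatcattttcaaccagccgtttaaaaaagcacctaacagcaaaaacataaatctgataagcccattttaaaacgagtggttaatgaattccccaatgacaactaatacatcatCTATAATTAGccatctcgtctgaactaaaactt
TPX2: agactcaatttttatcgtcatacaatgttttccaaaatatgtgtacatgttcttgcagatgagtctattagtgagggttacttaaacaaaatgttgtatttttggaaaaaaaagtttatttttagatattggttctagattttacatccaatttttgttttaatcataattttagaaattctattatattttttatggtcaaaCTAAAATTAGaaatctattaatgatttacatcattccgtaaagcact
PP2-A2: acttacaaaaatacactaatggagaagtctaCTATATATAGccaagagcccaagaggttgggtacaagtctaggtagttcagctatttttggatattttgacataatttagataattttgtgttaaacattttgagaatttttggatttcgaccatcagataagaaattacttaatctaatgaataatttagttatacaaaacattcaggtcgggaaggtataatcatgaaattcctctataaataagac
AT5G26692: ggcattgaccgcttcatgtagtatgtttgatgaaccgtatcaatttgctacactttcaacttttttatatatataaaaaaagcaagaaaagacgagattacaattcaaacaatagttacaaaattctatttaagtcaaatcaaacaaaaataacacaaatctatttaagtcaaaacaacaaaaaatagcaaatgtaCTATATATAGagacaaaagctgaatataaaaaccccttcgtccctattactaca
DIN11: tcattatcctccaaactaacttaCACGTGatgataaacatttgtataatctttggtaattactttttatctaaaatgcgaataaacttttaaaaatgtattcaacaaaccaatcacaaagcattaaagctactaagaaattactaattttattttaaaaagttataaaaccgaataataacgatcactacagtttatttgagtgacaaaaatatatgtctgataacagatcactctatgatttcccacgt
ABCF2: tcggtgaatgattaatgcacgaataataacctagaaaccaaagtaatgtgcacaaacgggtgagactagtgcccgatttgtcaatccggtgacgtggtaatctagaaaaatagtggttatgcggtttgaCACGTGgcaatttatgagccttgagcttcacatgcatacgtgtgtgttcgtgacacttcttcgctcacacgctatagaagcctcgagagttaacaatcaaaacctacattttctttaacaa
These windows lie at chr1:1668925-1669174 (minus strand), chr1:24558323-24558572 (minus), chr4:10776341-10776590 (plus), chr5:9282229-9282478 (plus), chr3:18393497-18393746 (plus) and chr5:3100292-3100541 (minus), in the order shown. The box ended 23, 37, 209 and 44 bases before the gene start in CHX23, TPX2, PP2-A2 and AT5G26692, and the G-box 221 and 115 bases before it in DIN11 and ABCF2. In ABCF2 it overlapped a match to ACGTGGC, another motif searched. A match is a run of letters, not a site shown to be bound.

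The 4 genes with a MEF2-type box shown above differed in level. CHX23, a cation/proton exchanger of pollen, had 7.55, 5.95 and 6.25 TPM in Col against 16.9, 13.8 and 19.5 in sdg2, and 4.96, 5.196 and 6.07 in HTR5 against 0.947, 0.498 and 0.508 in K4A. TPX2, a thioredoxin-dependent peroxidase, had 10.4, 11.4 and 9.84 TPM in HTR5 against 1.49, 2.15 and 1.91 in K4A, and 11.7, 10.09 and 10.2 in Col against 17.8, 27.9 and 22.4 in sdg2. PP2-A2, a lectin-like protein, averaged 2.52 ± 0.327 TPM in Col against 6.44 ± 0.147 in sdg2, and 3.16 ± 1.15 in HTR5 against 0.783 ± 0.417 in K4A. In AT5G26692, a putative membrane lipoprotein, the means were 13.3 ± 1.05 TPM in HTR5 against 0.426 ± 0.265 in K4A, and 12.6 ± 1.12 in Col against 33.9 ± 1.36 in sdg2. None of the 4 had a K4A library that reached a library of another group. This order held in all 34 genes with HTR5 less than 1 above Col, so nothing is read from it.

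By their families, 6 of the 38 genes act on pectin or on the enzymes that do. Pectinesterases remove methyl groups from pectin, and the members so related were AT3G05610, AT5G27870 and AT3G17060; the first 2 also hold an inhibitor domain by their family name. AT3G05610 had 13.8, 10.06 and 16.4 TPM in HTR5 against 0.412, 0.671 and 0.257 in K4A, and 18.5, 16.3 and 15.8 in Col against 34.3, 34.5 and 37.2 in sdg2. AT5G27870 and AT3G17060 were at lower levels, and their means ran in parallel. AT5G27870 averaged 2.33 ± 0.379 TPM in HTR5 against 0.0717 ± 0.124 in K4A, and 3.14 ± 0.608 in Col against 8.197 ± 1.01 in sdg2. AT3G17060 averaged 4.94 ± 1.06 TPM in Col against 11.8 ± 0.390 in sdg2, and 4.35 ± 0.939 in HTR5 against 0.264 ± 0.0400 in K4A. The inhibitor family had AT5G50030 and AT3G62180. AT5G50030 (chr5:20354589-20355706, plus strand) had 28.6, 17.58 and 25.6 TPM in Col against 65.9, 68.6 and 67.0 in sdg2, and 16.5, 14.3 and 20.5 in HTR5 against 0.781, 0.159 and 0.710 in K4A. AT3G62180 had 10.5, 12.8 and 10.3 TPM in HTR5 against 0.645, 0.175 and 0.335 in K4A, and 11.4, 12.7 and 11.4 in Col against 31.0, 29.6 and 29.2 in sdg2. Both the enzymes and the inhibitors of this family were thus among the genes lower in K4A and higher in sdg2.

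AT5G48140, annotated as a pectin lyase-like protein, had the largest of the smaller effects among all 45 genes. Its level (chr5:19518666-19520528, minus strand) was 16.3, 12.3 and 10.95 TPM in Col against 46.4, 51.6 and 51.6 in sdg2, and 8.70, 9.96 and 11.1 in HTR5 against 0.703, 0.334 and 0.243 in K4A. K4A minus HTR5 was -2.94 and sdg2 minus Col 1.86. The 10 left-out genes, all of pectin-related enzyme families, also lay lower in K4A, with K4A minus HTR5 from -4.81 to -1.99. Their sdg2 minus Col lay between 0.11 and 1.16, so that all but VGDH1 missed the threshold there. Summed over these 10 genes the level was 354.1 to 378 TPM in HTR5 against 9.07 to 17.3 in K4A, and 366.8 to 534.3 in Col against 676 to 704.5 in sdg2.

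Other wall proteins were led by sks13 and sks11, relatives of SKU5, a family resembling multicopper oxidases. The genes lie side by side on chromosome 3 on opposite strands, with 1526 bp between their starts and no gene between. The pair is read outward: sks11 at chr3:4350936-4353396 (minus strand) and sks13 at chr3:4354923-4357482 (plus strand). sks13 was the most abundant of the 45 genes, with 64.1, 49.6 and 62.6 TPM in HTR5 against 4.26, 2.67 and 1.77 in K4A, and 90.09, 83.7 and 63.4 in Col against 173.6, 193.2 and 192.9 in sdg2. It made up 19.3% of the summed TPM of the 38 genes in sdg2, and its K4A minus HTR5 of -3.98 was the lowest of all. sks11 had 18.1, 14.4 and 11.95 TPM in Col against 28.9, 31.9 and 32.3 in sdg2, and 14.6, 12.7 and 14.3 in HTR5 against 1.197, 0.686 and 0.553 in K4A. The order of the groups was the same in both genes, with the HTR5 and Col libraries overlapping in each.

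AT3G26110, annotated as similar to an anther-specific arabinogalactan protein, had 16.5, 7.42 and 11.2 TPM in HTR5, and 18.4, 13.8 and 15.5 in Col against 53.7, 43.9 and 55.5 in sdg2. It had at most 2 reads in a K4A library, so that HTR5 was at least 23.5 times as high as K4A. AT4G18596, of the Ole e 1 pollen allergen family, averaged 4.14 ± 0.328 TPM in Col and 11.04 ± 0.804 in sdg2, and HTR5 was at least 29.6 times as high as K4A. It had 3 reads in each K4A library, so that bound leaves no room for counting error. AT5G26700, of the germin-like cupin family, had 13.6, 10.5 and 14.5 TPM in HTR5 against 1.23, 0.998 and 1.53 in K4A, and 16.3, 17.0 and 16.6 in Col against 59.8, 57.0 and 54.8 in sdg2. Its sdg2 minus Col of 1.72 was next to that of AT5G48140 in size. GLP8, a germin-like protein, kept the highest mean level in K4A of the 38. It had 13.4, 9.43 and 15.8 TPM in HTR5 against 2.95, 4.14 and 2.32 in K4A, and 13.0, 11.7 and 11.2 in Col against 27.5, 36.0 and 31.7 in sdg2.

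Several wall enzymes were at intermediate levels. AT1G01980, of the FAD-binding berberine family, had 12.6, 9.52 and 11.2 TPM in Col against 28.3, 28.2 and 33.7 in sdg2, and 9.16, 7.33 and 10.4 in HTR5 against 0.282, 0.276 and 0.117 in K4A. SVL5, a relative of SHV3, had 2.73, 2.56 and 3.45 TPM in HTR5 against 0.364, 0.297 and 0.0344 in K4A, and 3.14, 3.34 and 2.40 in Col against 8.58, 8.72 and 9.48 in sdg2. GLOX1, related to glyoxal oxidases, averaged 4.84 ± 1.17 TPM in Col against 13.4 ± 0.231 in sdg2, and 5.33 ± 1.39 in HTR5 against 0.404 ± 0.180 in K4A. GH9A4, of the glycosyl hydrolase family that holds plant cellulases, averaged 6.90 ± 0.879 TPM in HTR5 against 0.298 ± 0.178 in K4A, and 7.20 ± 1.56 in Col against 19.2 ± 2.32 in sdg2. In each of these 4 genes the Col and HTR5 libraries overlapped, and the K4A libraries were all under 1 TPM.

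Signalling genes among the 38 were mostly kinases. AT4G39110 (BUPS1), a malectin-type receptor kinase close to the threshold, had 6.80, 6.65 and 7.83 TPM in HTR5 against 1.18, 1.23 and 0.733 in K4A, and 8.83, 7.41 and 5.80 in Col against 15.6, 14.02 and 17.3 in sdg2. PERK7, annotated as a protein kinase, and AT1G49290 lie 2076 bp apart on the minus strand of chromosome 1. PERK7 had 1.45, 0.788 and 1.17 TPM in HTR5, and 1.27, 1.23 and 1.08 in Col against 4.60, 4.74 and 4.69 in sdg2, with at most 1 read in a K4A library. HTR5 was at least 10.7 times as high as K4A. AT1G49290 had 1.41, 3.18 and 2.69 TPM in HTR5, and 0.861, 1.60 and 1.49 in Col against 7.29, 4.38 and 5.43 in sdg2, again with at most 1 read in a K4A library. HTR5 was at least 9.09 times as high as K4A. Both genes were low in the controls, and the sdg2 libraries of both genes stood above all others.

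AT5G12000, a kinase with an adenine nucleotide hydrolase-like domain, averaged 4.91 ± 1.29 TPM in Col against 13.3 ± 0.703 in sdg2, and 4.90 ± 0.0625 in HTR5 against 0.103 ± 0.0589 in K4A. AT3G56600, related to phosphatidylinositol 4-kinases, averaged 2.11 ± 0.698 TPM in HTR5 against 0.549 ± 0.399 in K4A, and 1.87 ± 0.420 in Col against 6.56 ± 0.434 in sdg2. AT4G33970, a leucine-rich repeat protein, averaged 3.40 ± 0.925 TPM in HTR5 against 1.13 ± 0.0595 in K4A, and 3.95 ± 0.142 in Col against 12.7 ± 2.11 in sdg2. The F-box gene DAF1, a class that selects proteins for breakdown, lies 10932 bp from AT3G62180 with 4 genes between them. It had 14.1, 12.3 and 17.8 TPM in HTR5 against 0.675, 0.385 and 0.210 in K4A, and 12.5, 12.8 and 12.5 in Col against 34.6, 26.1 and 31.4 in sdg2. In all, 8 of the 38 genes lay within 20 kb of another of the 38, as the 4 pairs named here and above.

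PLIM2a, a LIM-domain protein that bundles actin in pollen and is annotated under GATA-type zinc fingers, was even within groups. It had 12.9, 12.3 and 11.6 TPM in Col against 28.9, 26.1 and 25.9 in sdg2, and 11.9, 11.5 and 11.4 in HTR5 against 1.47, 1.46 and 2.20 in K4A. ACA3, an alpha carbonic anhydrase, which interconverts carbon dioxide and bicarbonate, had 14.5, 13.7 and 14.4 TPM in HTR5 against 0.333, 0.163 and 0.139 in K4A, and 20.7, 16.5 and 15.5 in Col against 37.1, 34.7 and 37.6 in sdg2. Its HTR5 libraries were all below its Col libraries, a gap that was small beside those to the mutants.

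The other members lower in K4A came from mixed families. MIOX4, a myo-inositol oxygenase that starts a route to wall sugar precursors, had 6.95, 6.29 and 7.36 TPM in Col against 19.3, 18.5 and 18.18 in sdg2, and 7.37, 6.56 and 6.18 in HTR5 against 2.30, 1.94 and 3.05 in K4A. AT5G18370, of the TIR-NBS-LRR class of disease resistance proteins, averaged 3.26 ± 0.404 TPM in HTR5 against 0.726 ± 0.184 in K4A, and 6.16 ± 0.410 in Col against 15.4 ± 2.01 in sdg2. AT1G54070, of the dormancy and auxin associated family, averaged 4.87 ± 0.586 TPM in HTR5 against 0.409 ± 0.0716 in K4A, and 8.00 ± 0.475 in Col against 18.0 ± 3.07 in sdg2. In both genes every HTR5 library lay between the Col and K4A libraries. AT3G28810, which holds a domain of unknown function, averaged 6.51 ± 1.06 TPM in Col and 16.2 ± 2.29 in sdg2, with HTR5 at least 37.8 times as high as K4A. AT1G75870, uncharacterized, had 2.84, 2.78 and 3.21 TPM in HTR5, and 2.45, 0.777 and 2.60 in Col against 8.13, 6.16 and 7.90 in sdg2, with HTR5 at least 10.5 times as high as K4A.

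The 7 genes higher in K4A and lower in sdg2 came from 7 different families, and no 2 of them were neighbours. Their median K4A minus HTR5 was 1.97, from 1.03 to 3.23, and their median sdg2 minus Col was -1.19, from -1.49 to -1.09. Against Col, K4A was higher in every library for all 7, beside 54.3% of genes with a mean TPM of 3 or more. In HTR5, 3 of the 7 were called lower than in Col, namely SKS2, DIN11 and TLP5, beside 3.78% of all tested genes. In the comparison of the mutants all 7 were called higher in K4A, beside 20.4% of all tested genes. The rule favours each of these 3 differences, and nothing is read from their counts. For 4 genes the mean in sdg2 was under 1 TPM.

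SKS2, a further relative of SKU5, had 3.80, 4.47 and 3.5 TPM in Col against 0.819, 0.959 and 0.501 in sdg2, and 1.84, 3.03 and 1.77 in HTR5 against 11.4, 11.03 and 11.7 in K4A. It thus ran opposite to sks11 and sks13 of the same family. DIN11, a 2-oxoglutarate-dependent oxygenase known to be induced by darkness, had 0.636, 1.48 and 0.850 TPM in HTR5 against 16.5, 16.3 and 19.3 in K4A, and 7.11, 4.90 and 5.601 in Col against 1.86, 1.12 and 1.55 in sdg2. Its HTR5 and sdg2 libraries were both low, and HTR5 minus Col was -1.80. Among the 9 tested genes of the sugar starvation and dark list, 8 were called higher and 0 lower in K4A than in HTR5, beside 42.5% and 26.1% of all tested genes. In sdg2 against Col 6 were called higher and 3 lower, beside 52.4% and 20.7%. DIN11 is 1 of the 9 and was chosen for its values in both comparisons. TLP5, a tubby-like protein, had 4.26, 5.13 and 5.34 TPM in Col against 1.71, 1.62 and 1.39 in sdg2, and 1.75, 1.51 and 1.09 in HTR5 against 9.74, 7.94 and 7.31 in K4A. In TLP5, too, HTR5 was near sdg2, with HTR5 minus Col at -1.28.

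RNS1, a secreted ribonuclease known to be induced by phosphate starvation and wounding, was the most abundant of the 7. It had 7.06, 8.91 and 6.10 TPM in HTR5 against 37.2, 29.6 and 31.4 in K4A, and 9.42, 9.22 and 4.70 in Col against 3.12, 2.41 and 3.47 in sdg2, with Col and HTR5 overlapping. ABCF2, of the ABC transporter family, had 0.439, 0.924 and 0.855 TPM in HTR5 against 6.42, 7.37 and 6.96 in K4A, and 1.32, 1.44 and 1.39 in Col. It had at most 3 reads in a library of sdg2, and Col was at least 10.6 times as high. AT1G11070, a hydroxyproline-rich glycoprotein, had 1.95, 2.37 and 2.53 TPM in Col against 0.436, 0.255 and 0.639 in sdg2, and 2.44, 2.29 and 2.72 in HTR5 against 7.58, 6.81 and 6.55 in K4A. PDF1.4, a defensin-like protein, had 1.84, 3.45 and 3.40 TPM in HTR5 against 6.84, 7.26 and 6.33 in K4A, and 3.84, 1.29 and 2.16 in Col against 0.452, 0.486 and 0.608 in sdg2. Its values rest on 3 to 4 reads in the sdg2 libraries and 6 to 18 in the Col libraries. In AT1G11070 and PDF1.4 the controls overlapped, with K4A above and sdg2 below them in every library.

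At the threshold, the smaller of the 2 effects was 1.01 for AT4G39110 and TPX2, just inside, and 0.99 for APPB1, a pectin methylesterase inhibitor relative, and AT4G39610, just outside. In the other direction PDF1.4 (1.03) and RNS1 (1.09) were just inside, and JAL33 (0.99) and AT4G17470 (0.95) just outside. When the choice was made on 2 replicates and read in the third, which the choice had not used, 53, 41 and 30 genes were chosen as lower in K4A and higher in sdg2. Of these, 53, 40 and 30 kept both signs in the left-out replicate 1, 2 and 3, beside 12.7, 20.6 and 13.6% of all genes with a mean TPM of 3 or more. Both effects reached 1 there in 23, 26 and 24 of them, beside 0.142, 0.258 and 0.357%. In the other direction 7, 11 and 7 genes were chosen and all kept both signs, beside 6.99, 6 and 7.13%. Both effects reached 1 there in 4, 5 and 5 of them, beside 0.0789, 0.0421 and 0.0736%. A choice at 1 or more favours kept signs, and the shares over all genes come from genes not so chosen. The left-out libraries are of the same 4 groups, and their spread may be technical. These counts therefore speak only of the spread between libraries, and not of the differences in depth between the groups. They are no separate support for the set.

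How many genes passed depended on the scale. All tested genes had a median sdg2 minus Col of 0.31 and K4A minus HTR5 of 0.14, and median-of-ratios scaling brought them to 0.008 and 0.002. With that scaling 20 genes in place of 38 passed as lower in K4A and higher in sdg2, and 12 in place of 7 in the other direction; quantile normalization gave 17 and 11. Among the 38 members, sdg2 minus Col was at least 0.69 with the first of these scalings and at least 0.64 with the second. A pseudocount of 0.1 in place of 1 raised the numbers to 71 and 23.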

How the data were processed

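RNA was taken from whole seedlings and sequenced in 12 libraries, 3 in each of 4 groups set by the sample titles. The authors deposited TPM for 27655 genes, and the values of each library sum to 1000000, so no scaling between libraries is seen in them. Per the submitters' processing notes, fastp 0.20.1, HISAT2 and DESeq2 1.26.0 were used with the build TAIR10. The counting tool, its annotation and its use of strand are not given in the sources used here, so reads of overlapping or near-identical genes are uncertain. Of the gene IDs, 27445 matched the RefSeq annotation of TAIR10.1. Low values came out as whole reads, within 0.02 of a read, for at least 99.98% of those in each library when multiplied by the RefSeq gene span, introns included. Depth, read numbers and coordinates rest on that match.

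Members were found from group means of log2(TPM + 1). The members and the gene lists were chosen with earlier results of these data known. Across genes, log2(TPM + 1) was fitted with limma 3.58.1 in R 4.3.3 (a mean per group, all 12 libraries, eBayes with a trend) on the 20881 genes that reached 1 TPM in 3 or more libraries. A gene was called at a Benjamini-Hochberg adjusted p under 0.05. The code of the fit was tried on simulated data with few changed genes, in K4A only. Changes in the real data were far broader, so that trial does not vouch for the calls. Named first were the 12 members of each direction with the largest smaller effect, members of a list, genes next to the threshold and members within 20 kb of another; all other members are given so that each is accounted for. Alternatives covered the pseudocount, the filter, the threshold, the scaling, the control, the block by replicate number and each library left out.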

Additional observations from a re-analysis of the deposited data

How the results depend on the processing

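The 45 members split as 38 lower in K4A and higher in sdg2 and 7 in the other direction. With a pseudocount of 0.5 the rule gave 70 genes, 13 of them higher in K4A, and with 0.1 it gave 94, as 71 and 23. A mean TPM of at least 10 left 3 higher in K4A. A minimum change of 0.5 gave 291 genes, as 211 and 80, and one of 1.5 gave 5, as 5 and 0. Median-of-ratios scaling gave 20 and 12, and quantile normalization 28 in all, as 17 and 11. Of the 45 members, 24 passed with the first of these scalings and 21 with the second. Leaving out libraries gave 37 to 60 genes in all, 30 to 53 lower in K4A and 5 to 11 higher, the 11 without replicate 2 in every group. Without these libraries 8 to 10 members were called in HTR5 against Col (9 with all) and 44 to 45 in K4A against sdg2 (44 with all). Of 56 effects of 28 named genes, none changed sign under any alternative run, which their choice at 1 or more favours and which is no measure of stability. Same-numbered libraries correlated at -0.136 to 0.0703 in their deviations from group means, so the numbers were not taken to pair samples. With the replicate block 9 and 44 members were called, as without it. The cause of these shifts was not tested. Genes with few reads in K4A limit the precision of their fold changes.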
